A study of Homo sapiens with 6 samples.

Results

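Immune checkpoint ligands of tumour cells were examined in xenografts of the established human liver cancer line MHCC97L. The set was chosen by gene symbol and holds 8 genes of the 58515 whose symbol stood on a row of its own. They are CD274 (PD-L1), PDCD1LG2 (PD-L2), CD276 (B7-H3), VTCN1 (B7-H4), PVR (CD155), LGALS9 (galectin-9), ICOSLG (B7-H2) and HHLA2 (B7-H7). All 8 were found in each of the 6 tables, and 5 had an average level of 1 TPM or more and entered the test. The controls (Ctrl, 3 libraries) and the tumours given recombinant human lumican (rhLUM, 3 libraries) carry the same line, and no other allele or agent is named. Lumican is a secreted proteoglycan of the extracellular matrix. Libraries of a group carry the letters A, B and C in the labels. The sources used here do not give the host strain, dose or duration. They also do not say that the 3 libraries of a group are 3 tumours, so p-values cover the spread between these 6 libraries alone, part or all of which may be technical.

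Checkpoint ligands are surface or secreted proteins that bind receptors on T cells and natural killer cells. The PD-1 ligands and PVR deliver inhibitory signals through PD-1 and TIGIT, galectin-9 binds TIM-3, and ICOSLG gives a stimulatory signal through ICOS. CD276 and VTCN1 are B7 family proteins that restrain T cells. HHLA2 has both a stimulatory receptor, TMIGD2, and an inhibitory one, KIR3DL3, and mice have no counterpart of the gene. In liver cancer, CD274 is best known as the target of antibody therapy and as a gene switched on by interferon gamma.

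Values are TPM, which take account of transcript length, so that levels of different genes in a library can be set side by side. The summed level of the 8 genes was 196.66, 201.72 and 201.12 TPM in the Ctrl libraries and 205.18, 191.22 and 196.3 TPM in the rhLUM libraries. The groups overlapped in this sum, with means of 199.8 ± 2.76 and 197.6 ± 7.07 TPM (SD, n = 3 per group). The makeup of the sum differed. LGALS9 and HHLA2 together led in Ctrl, with 29.3 ± 2.11% and 34.6 ± 1.15% of the sum, and stood at 13.9 ± 0.63% and 27.7 ± 0.63% in rhLUM. PVR made up 16.3 ± 0.90% in Ctrl and 29.4 ± 1.16% in rhLUM, and CD276 18.1 ± 0.90% and 26.4 ± 1.06% (SD, n = 3). None of these 4 shares overlapped between the groups. In bulk RNA, fewer cells of a type and less RNA per cell cannot be told apart.

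**Figure D1:**
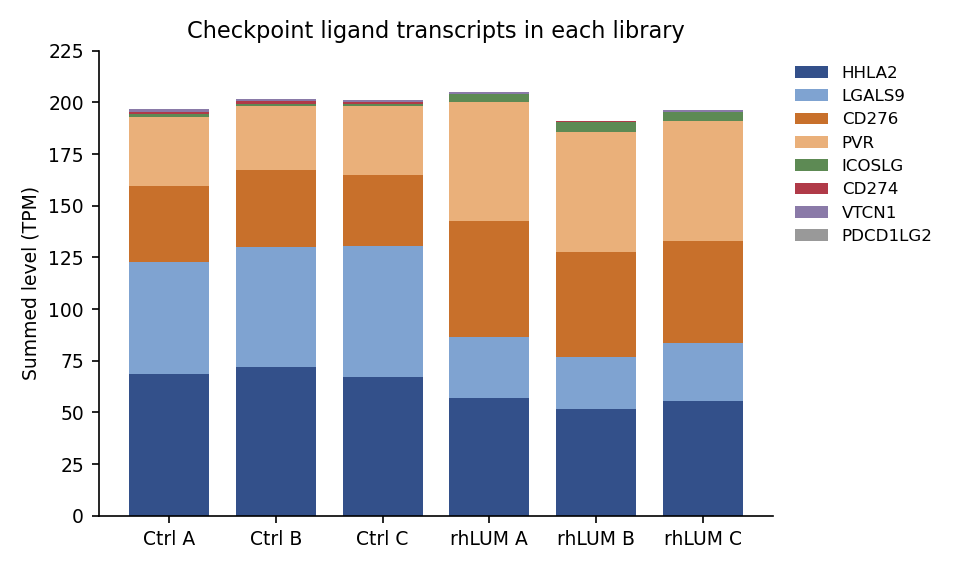
Stacked levels (TPM) of the 8 checkpoint ligand genes in each of the 3 Ctrl and 3 rhLUM libraries, 1 bar per library. The bars are between 191.22 and 205.18 TPM high in both groups, while the LGALS9 and HHLA2 segments are smaller and the PVR and CD276 segments larger in rhLUM.

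Of the 5 genes tested, PVR, CD276 and ICOSLG rose and LGALS9 and HHLA2 fell (limma, adjusted p under 0.05), and all 5 had groups that did not overlap. In the same fit 66.8% of the 14781 genes tested were called, 44.5% higher and 22.3% lower, and 71.4% had groups that did not overlap (47.0% higher, 24.3% lower). A call by itself is therefore common in this comparison, and 5 called of 5 is no result about these genes as a set. Counts of the other lists below are to be read beside these shares. The median log2 change of the 5 was 0.51, against 0.16 for all genes tested. After median-of-ratios scaling the counts were the same, 3 higher and 2 lower, with a median of 0.35 against 0.01 for all genes. With no filter all 8 members entered, 3 higher and 3 lower, and their median was -0.099 against 0.01 for all genes. The direction of the median thus depends on the filter.

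**Figure D2:**
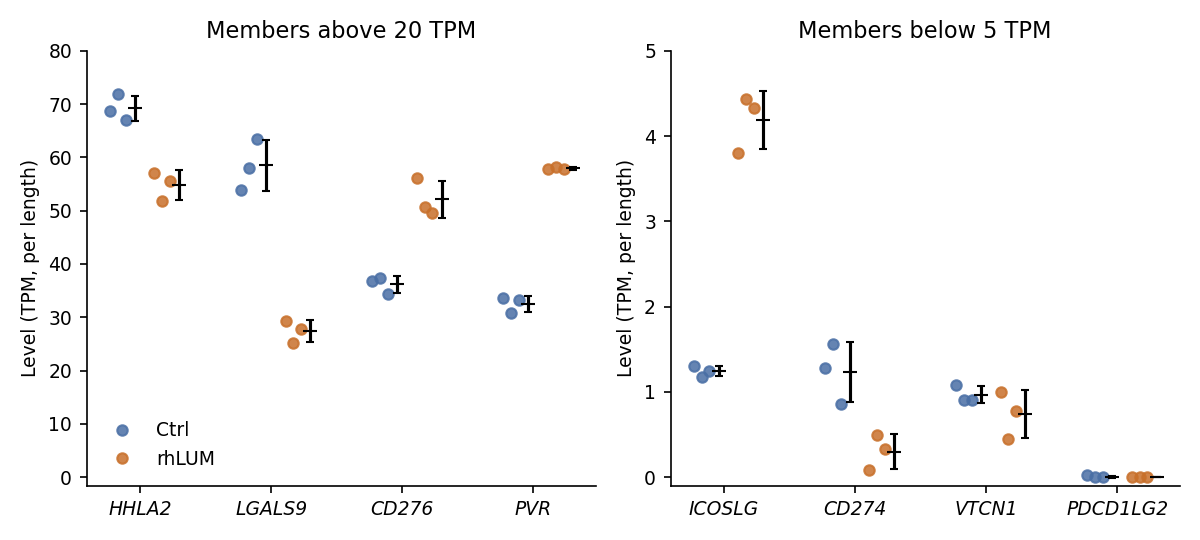
Level (TPM, linear axes) of each checkpoint ligand in every library, with the mean and SD (n = 3) beside the points. The groups are apart for HHLA2, LGALS9, CD276, PVR, ICOSLG and CD274, and overlap for VTCN1 and PDCD1LG2.

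Over the whole series, 6571 genes were higher and 3299 lower with rhLUM, and median-of-ratios scaling gave 5083 and 4555, with the median gene moved by -0.15. Mitochondrially encoded transcripts held 20.7% to 20.8% of TPM in Ctrl and 14.4% to 14.6% in rhLUM, and rescaling without them gave 5573 higher and 4121 lower. The members' counts were 3 and 2 under that rescaling too. Pearson's r between libraries, across genes, which are not independent replicates, was 0.978 to 0.983 in the 6 pairs within a group and 0.928 to 0.935 in the 9 pairs between groups. The keratin genes KRT8 and KRT18 and the liver genes ALB and AFP were at 27.44 TPM or more in every library, while the liver cancer marker GPC3 was under 1 TPM. The 12 epithelial and liver markers summed to 2503.05 to 2537.5 TPM in Ctrl and 4765.16 to 4794.35 TPM in rhLUM, led by KRT8, while EPCAM fell from 2.03 ± 0.32 to 0.82 ± 0.30 TPM (SD, n = 3).

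Markers of human immune cells were mostly near 0. All 5 dendritic cell markers, which include CD1C, CLEC9A and FLT3, were listed at 0 in every library. The T cell gene CD2 and the natural killer gene NKG7 were listed at 0 as well, and 7 of 9 markers of T and natural killer cells had a mean under 1 TPM. Their summed level was 1.06 to 1.6 TPM in Ctrl and 6.9 to 7.55 TPM in rhLUM, carried by CD3G and CD3D. The 10 myeloid markers summed to 224.91 to 226.62 TPM and 303.34 to 306.44 TPM, of which LYZ and CD68 held most, while CD14, CD163 and CSF1R were under 1 TPM. The list went both ways: of 4 tested, LYZ and CD68 rose, ITGAM fell from 8.01 ± 0.69 to 3.84 ± 1.00 TPM and ITGAX from 2.43 ± 0.26 to 0.87 ± 0.35 TPM (SD, n = 3). The 4 B cell markers summed to at most 2.39 TPM in any library, and MS4A1 was listed at 0. The 6 endothelial markers summed to 21.64 to 23.01 and 26.94 to 31.76 TPM, mostly PECAM1, with EMCN, TEK and VWF near 0. CDH5 went the other way, from 3.10 ± 0.34 to 0.45 ± 0.053 TPM (SD, n = 3), and without PECAM1 the sum was 5.43 to 6.26 TPM in Ctrl and 3.7 to 3.94 TPM in rhLUM. The 8 fibroblast markers summed to 38.17 to 41.85 and 102.09 to 112.79 TPM, mostly the LUM transcript itself. Without LUM they summed to 14.4 to 15.4 and 10.0 to 13.7 TPM, and DCN fell from 7.96 ± 0.35 to 1.26 ± 0.32 TPM (SD, n = 3). These are levels of human genes in xenografts, so they do not measure the immune and stromal cells of the host. Whether host reads were removed is not stated in the sources used here, so their part in these values is unknown. The part of other cell types in the ligand values was not tested.

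CD274 encodes PD-L1, the main ligand of PD-1. Its level was low in every library, at 1.28, 1.56 and 0.86 TPM in Ctrl and 0.08, 0.49 and 0.33 TPM in rhLUM. All 3 rhLUM libraries lay below all 3 Ctrl libraries, and rhLUM A was the lowest. The means were 1.23 ± 0.35 and 0.30 ± 0.21 TPM (SD, n = 3), a 4.11-fold lower level with rhLUM. With a mean of 0.767 TPM over the 6 libraries the gene did not pass the filter. An exact two-sided permutation test gave p = 0.1, the smallest that 3 against 3 libraries allow. With no filter the gene entered the fit and fell by 0.78 on the log2(TPM + 1) scale (limma adjusted p = 0.0157). The number of reads behind levels of this size is unknown.

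PDCD1LG2 encodes the other PD-1 ligand. It was listed at 0.02 TPM in Ctrl A and at 0 in the other 5 libraries. CD274 and PDCD1LG2 lie side by side on the plus strand of chromosome 9 (GRCh38, GENCODE release 29). CD274 runs from 5450503 to 5470566 and PDCD1LG2 from 5510570 to 5571254, with 40004 bases between them. JAK2, which encodes a kinase of the interferon gamma receptor, ends 322320 bases before CD274. Amplification of this block raises these genes together in some lymphomas. Here JAK2 stood at 1.78 ± 0.19 TPM in Ctrl and 1.86 ± 0.11 TPM in rhLUM (SD, n = 3), a log2 change of 0.04 with a 95% interval of -0.25 to 0.33.

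Of 12 tested genes within the same part of 9p24, 6 rose and 1 fell, against 44.5% and 22.3% of all genes. Their median was 0.37. After median-of-ratios scaling 5 rose and 2 fell, with upper quartile scaling 4 rose and 3 fell, and with length and GC content of the transcripts corrected for 2 rose and 2 fell. Leaving out rhLUM C gave 2 lower. The gene nearest to CD274 among those tested was PLGRKT, a plasminogen receptor gene, at -0.17 (95% interval -0.55 to 0.21). ERMP1, an endoplasmic reticulum peptidase gene, rose by 1.12, CDC37L1 by 0.76 and RANBP6 by 0.44, while KIAA2026 fell by 0.52 (limma adjusted p = 1.93e-06, 0.000387, 0.00286 and 0.00291). The call of RANBP6 was lost with length and GC corrected for (limma adjusted p = 0.183).

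**Figure D3:**
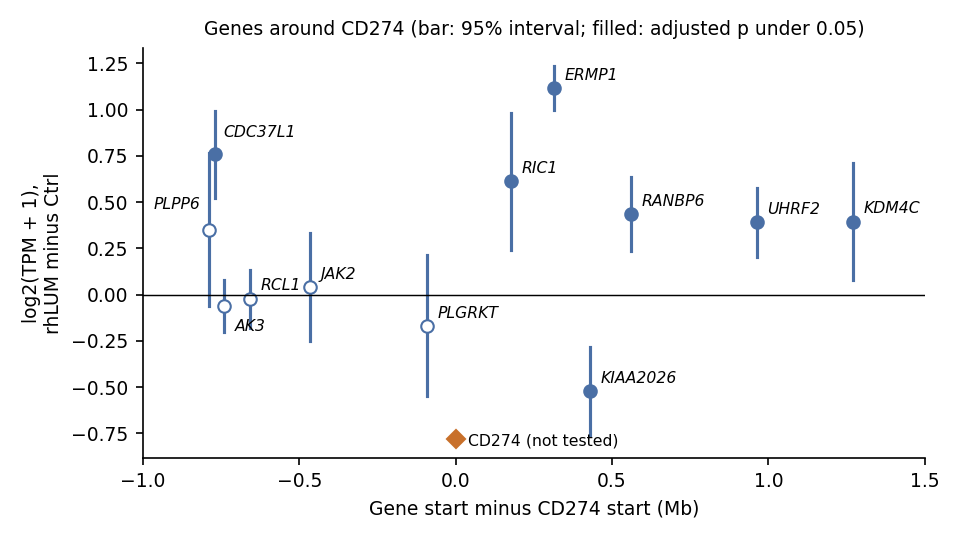
Change with rhLUM on the log2(TPM + 1) scale (vertical axis, bars give the 95% interval) against the distance of each gene's start from that of CD274 in Mb (horizontal axis), for 12 tested genes and, as a diamond with no test, CD274. The genes go both ways, and CD274, at -0.78, is the lowest point.

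The stretch upstream of CD274 is shown because it carries the letters through which interferon factors are known to act on the gene. Promoter sequences came from RefSeq (GRCh38.p14) and cover 250 bases before each start. An entry was found for 7 of the 8 genes, with 10 starts in all, and PDCD1LG2 had none. 6 motifs were searched on both strands. Capitals mark the interferon response element (GAAA, any 2 bases, GAAA), the gamma-activated site TTCNNNGAA and the AP-1 site TGANTCA. HHLA2 and PVR are shown beside CD274 as a ligand that fell and a ligand that rose, and the PVR stretch holds none of these 3 motifs. The stretches are CD274 at chr9:5450292-5450441, HHLA2 at chr3:108296298-108296447 and PVR at chr19:44643660-44643797, all on the plus strand and read 5′ to 3′.
CD274: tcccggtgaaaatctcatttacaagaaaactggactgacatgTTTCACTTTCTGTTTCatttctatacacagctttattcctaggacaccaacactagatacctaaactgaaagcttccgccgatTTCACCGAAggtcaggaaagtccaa
HHLA2: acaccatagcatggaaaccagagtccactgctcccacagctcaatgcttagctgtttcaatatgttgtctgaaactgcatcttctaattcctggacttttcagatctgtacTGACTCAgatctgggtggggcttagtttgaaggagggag
PVR: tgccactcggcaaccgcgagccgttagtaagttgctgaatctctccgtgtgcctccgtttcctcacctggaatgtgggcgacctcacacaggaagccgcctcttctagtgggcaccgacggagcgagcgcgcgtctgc

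CD274 held 2 overlapping interferon response elements, on the reverse strand between positions -208 and -193 from the start. It also held 1 gamma-activated site between -125 and -117. These letters occur in 3.0% and 6.6% of the 35116 promoters of the table, and in none of the other 9 windows. The AP-1 letters occur in 6.6% of promoters and, here, at the first of 3 HHLA2 starts. The loose NF-kB letters (GGG, any 5 bases, CC), found in 54.4% of promoters, matched at 1 or more starts of CD274, CD276, PVR, LGALS9, ICOSLG and HHLA2. The hypoxia element ACGTG (18.5% of promoters) was found at 1 start of CD276, and the antioxidant element TGANNNNGC (35.2%) at starts of HHLA2, CD276 and PVR. A match is a description of these letters and not of binding.

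STAT2 encodes a transcription factor of the type I interferon response. Its level was at 37.39, 41.35 and 40 TPM in Ctrl and 31.42, 28.39 and 31.07 TPM in rhLUM. STAT2 fell by 0.38 on the log2 scale (limma adjusted p = 0.000853). IRF9, which encodes the DNA-binding partner of STAT2, fell from 21.9 ± 4.28 to 9.50 ± 0.27 TPM (SD, n = 3). IRF1, a factor that binds the interferon response element, fell from 30.0 ± 1.42 to 22.7 ± 1.61 TPM (SD, n = 3). IRF2 and IRF3 went the other way, by 0.36 and 0.19 (limma adjusted p = 0.00147 and 0.00426). The call of IRF3 was lost after median-of-ratios scaling (limma adjusted p = 0.66).

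Of 20 tested genes of interferon signalling to CD274, 8 rose and 11 fell, with a median of -0.25. The counts were 6 and 11 after median-of-ratios scaling and 5 and 11 with upper quartile scaling. The shares over all genes tested were 44.5% and 22.3%. Among genes at 1 TPM or more in each of the 6 libraries, 19 were tested, and 8 rose and 10 fell. The falls were led by the feedback inhibitor SOCS3. It went from 75.3 ± 2.04 to 11.7 ± 0.085 TPM (SD, n = 3), a log2 change of -2.59 (limma adjusted p = 2.44e-08). SOCS1, also a feedback inhibitor, went from 12.8 ± 0.77 to 0.22 ± 0.13 TPM (SD, n = 3), a difference of -3.50. It entered the test only through its Ctrl level, so its fall adds nothing to the count. SOCS3 and SOCS1 are themselves targets of STAT factors. The receptor chain gene IFNGR1 fell by 0.65, the other chain, IFNGR2, rose by 0.34, and the kinase JAK1 rose by 1.02. PTPN11, which encodes the phosphatase SHP2, rose from 35.4 ± 0.23 to 81.6 ± 0.38 TPM (SD, n = 3). NLRC5, the activator of class I HLA genes, fell by 1.06, and CIITA, that of class II genes, was at 0.17 TPM or less in every library.

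**Figure D4:**
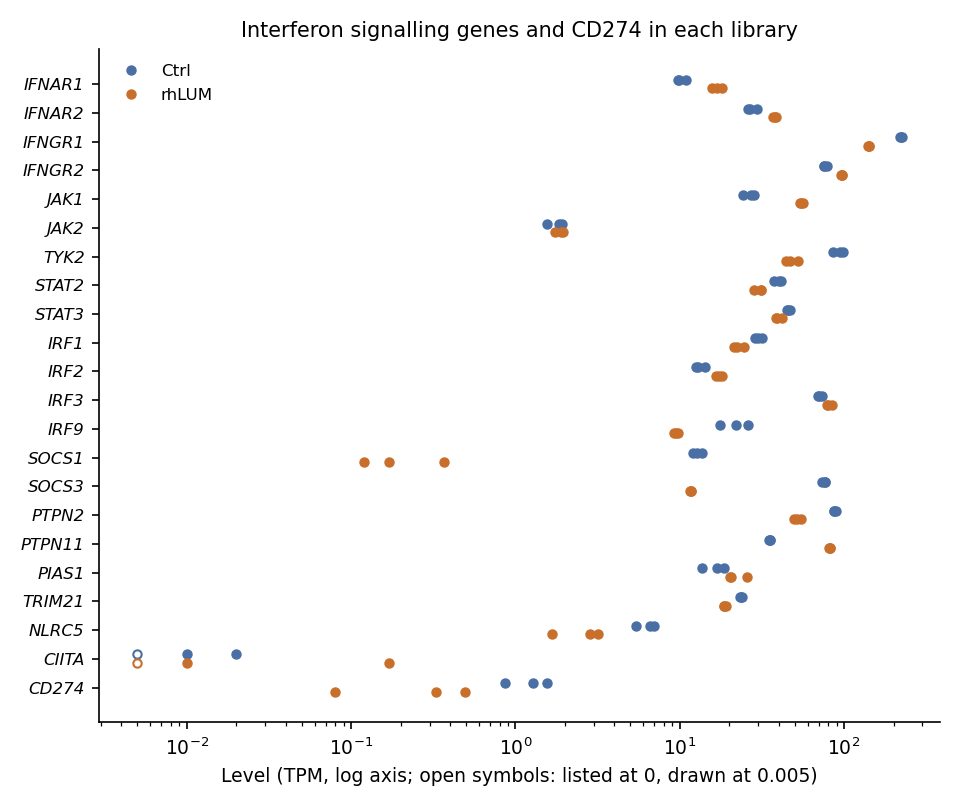
Level (TPM, log axis) of interferon signalling genes and CD274 in each of the 6 libraries, 1 point per library, with open symbols for values listed at 0. STAT2 lies at 28.39 TPM or above in all 6 libraries, and SOCS1, SOCS3 and CD274 are lower in every rhLUM library than in any Ctrl library.

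PVR encodes CD155, the ligand shared by the inhibitory receptors TIGIT and CD96 and the stimulatory receptor CD226. It lies on chromosome 19 from 44643798 to 44663583, plus strand. Its level was 33.52, 30.83 and 33.19 TPM in Ctrl and 57.76, 58.24 and 57.8 TPM in rhLUM. Every rhLUM library was above every Ctrl library, and the 3 rhLUM values were close together. PVR rose 1.78-fold, by 0.82 on the log2 scale (SE 0.04, limma adjusted p = 3.59e-06), and by 0.65 after median-of-ratios scaling. Its change was above that of 88.4% of the genes tested.

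NECTIN2 (listed as PVRL2) encodes a second ligand of CD226, which also binds the inhibitory receptor PVRIG. It moved the other way, from 186.97, 192.54 and 188.15 TPM in Ctrl to 105.63, 102.27 and 101.18 TPM in rhLUM. NECTIN2 fell by 0.87 on the log2 scale (limma adjusted p = 4.46e-07). The ratio of PVR to NECTIN2 went from 0.172 ± 0.010 to 0.563 ± 0.014 (SD, n = 3), 3.27 times as high with rhLUM, and the groups did not overlap (exact two-sided permutation p = 0.1, the smallest possible). A ratio within a library does not depend on how the library is scaled. NECTIN2 remained the more abundant of the pair, and their sum went from 221.7 ± 1.48 to 161.0 ± 2.24 TPM. NECTIN1 (listed as PVRL1) rose from 3.91 ± 0.52 to 8.80 ± 1.09 TPM (SD, n = 3), and NECTIN4 (listed as PVRL4) was at 0.19 TPM or less in every library.

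LGALS9 encodes galectin-9, a lectin with a pair of sugar-binding domains that is a ligand of TIM-3. The gene lies on chromosome 17 from 27629798 to 27649560, plus strand. It stood at 53.96, 58.08 and 63.49 TPM in Ctrl and at 29.29, 25.15 and 27.88 TPM in rhLUM, with no overlap. LGALS9 fell by 1.06 on the log2 scale (SE 0.08, limma adjusted p = 1.71e-05), to 0.469 of its Ctrl level, and by 1.23 after median-of-ratios scaling. Only 4.61% of the genes tested had a lower change. The copies LGALS9B and LGALS9C are close to identical to LGALS9 and can share its reads. They summed to 0.51 to 0.83 TPM in Ctrl and 0.16 to 0.32 TPM in rhLUM, so the split matters little here: with them added the level went from 59.2 ± 4.91 to 27.7 ± 2.03 TPM (SD, n = 3).

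Of 7 galectin genes tested, LGALS9 among them, 4 rose and 2 fell (3 and 3 after median-of-ratios scaling). The shares over all genes tested were 44.5% and 22.3%. LGALS4, an intestinal galectin, rose from 600.0 ± 10.4 to 863 ± 35.7 TPM and LGALS2 from 14.3 ± 0.49 to 39.1 ± 1.55 TPM (SD, n = 3). LGALS3, which also binds LAG-3, fell by 0.51 (limma adjusted p = 2.08e-05). LGALS9 made up 5.03 ± 0.42% of the galectin transcripts in Ctrl and 1.96 ± 0.12% in rhLUM (SD, n = 3). The other TIM-3 ligands on the lists were not called as deposited. CEACAM1 was at 87.5 ± 6.45 and 84.8 ± 0.43 TPM (log2 change -0.04, 95% interval -0.17 to 0.08) and HMGB1 at 291.5 ± 8.17 and 292.6 ± 7.94 TPM (0.01, -0.07 to 0.08). After median-of-ratios scaling both passed as lower, at -0.21 and -0.16 (limma adjusted p = 0.0118 and 0.00331).

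CD276 encodes B7-H3, a protein of many solid tumours whose receptor is not settled. It lies on chromosome 15 from 73683966 to 73714518, plus strand. Its level was 36.82, 37.35 and 34.33 TPM in Ctrl and 56.14, 50.67 and 49.58 TPM in rhLUM. The groups did not overlap, and rhLUM A was the highest library. CD276 rose by 0.51 on the log2 scale (SE 0.06, limma adjusted p = 0.000188), a 1.44-fold rise in TPM. Scaling took a larger share of this change than of the others that rose. The change of CD276 was 0.35 after median-of-ratios and 0.28 after upper quartile scaling, still called under both (limma adjusted p = 0.00165 and 0.00516). With length and GC content of the transcripts corrected for, the changes were 0.52 for CD276, 0.58 for PVR and 0.97 for ICOSLG.

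VTCN1 encodes B7-H4 and lies on chromosome 1 from 117143587 to 117210960, minus strand. It was at 1.08, 0.91 and 0.91 TPM in Ctrl and 1, 0.45 and 0.77 TPM in rhLUM. The groups overlapped, the mean of 0.853 TPM was under the filter, and an exact two-sided permutation test gave p = 0.3. With no filter the limma adjusted p was 0.421.

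HHLA2 was the most abundant of the 8 in Ctrl. It lies on chromosome 3 from 108296490 to 108378285, plus strand. Its level was 68.68, 71.81 and 67.09 TPM in Ctrl and 57.11, 51.78 and 55.61 TPM in rhLUM, with no overlap. HHLA2 fell by 0.33 on the log2 scale (SE 0.05, limma adjusted p = 0.000604), to 0.792 of its Ctrl level. The fall was larger relative to the median gene, 0.50 after median-of-ratios scaling. With length and GC corrected for, a different adjustment, the fall was 0.56. Its stimulatory receptor TMIGD2 was at 0.43 TPM or less in every library and its inhibitory receptor KIR3DL3 was listed at 0.

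ICOSLG encodes the ligand of ICOS, the one member of the set that is known chiefly for stimulating T cells. It lies on chromosome 21 from 44217014 to 44240966, minus strand. Its level was 1.3, 1.18 and 1.25 TPM in Ctrl and 3.8, 4.44 and 4.33 TPM in rhLUM, so every rhLUM library was higher. ICOSLG rose 3.37-fold in TPM, or by 1.21 on the log2(TPM + 1) scale (SE 0.11, limma adjusted p = 5.19e-05). That scale understates the change of a low gene, and with a pseudocount of 0.1 the value was 1.67. The change was above that of 96.5% of the genes tested, from a level in Ctrl above that of only 4.79% of them.

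Other ligands that stimulate or hold T cells were mostly low. Of 10 costimulatory ligands 3 were tested, and 2 of them fell and none rose (3 and 0 after median-of-ratios scaling). Over all genes tested 22.3% fell and 44.5% rose. With no filter all 10 ligands entered, and 2 rose and 3 fell. ICAM1, the adhesion ligand of LFA-1, fell from 144.2 ± 1.47 to 70.9 ± 4.40 TPM (SD, n = 3), or by 1.02 on the log2 scale (limma adjusted p = 2.03e-06). TNFSF9, which encodes 4-1BB ligand, fell by 0.26. The B7 genes CD80 and CD86 did not pass the filter: CD80 was at 0.11 TPM in rhLUM C and listed at 0 elsewhere, and CD86 was at 0.67 to 1.10 TPM in Ctrl and 0.10 to 0.28 TPM in rhLUM. TNFSF18 (GITR ligand), TNFSF4 (OX40 ligand) and CD70, also under the filter, were higher in every rhLUM library, with means of 0.22 and 1.36 TPM, 0.367 and 0.677 TPM, and 0.023 and 0.283 TPM.

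Of 13 tested genes among the other ligands of checkpoint receptors, 4 rose and 5 fell (4 and 8 after median-of-ratios scaling), with a median of -0.10. The shares over all genes tested were 44.5% and 22.3%. Among genes at 1 TPM or more in each of the 6 libraries, 10 were tested, and 1 rose and 6 fell. NCR3LG1, VSIR and NECTIN3 averaged under 1 TPM in Ctrl and entered the test only through their rhLUM level, so their rises add nothing to the count. TNFRSF14, which encodes HVEM, the ligand of BTLA, fell from 45.6 ± 1.74 to 12.4 ± 1.63 TPM and CD47, the ligand of SIRPA on macrophages, from 141.7 ± 6.53 to 60.1 ± 1.5 TPM (SD, n = 3). FGL1, a liver protein that binds LAG-3, fell by 0.76 (limma adjusted p = 8.72e-06). NCR3LG1, which encodes B7-H6, the ligand of the natural killer receptor NKp30, was at 0.84, 0.95 and 0.87 TPM in Ctrl and 4.23, 4.24 and 4.31 TPM in rhLUM, a difference of 1.48 on the log2 scale. For VSIR (listed as C10orf54), which encodes VISTA, the difference was 0.80 and for NECTIN3 (listed as PVRL3) 0.74. Both were at 2.26 TPM or less in every library.

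**Figure D5:**
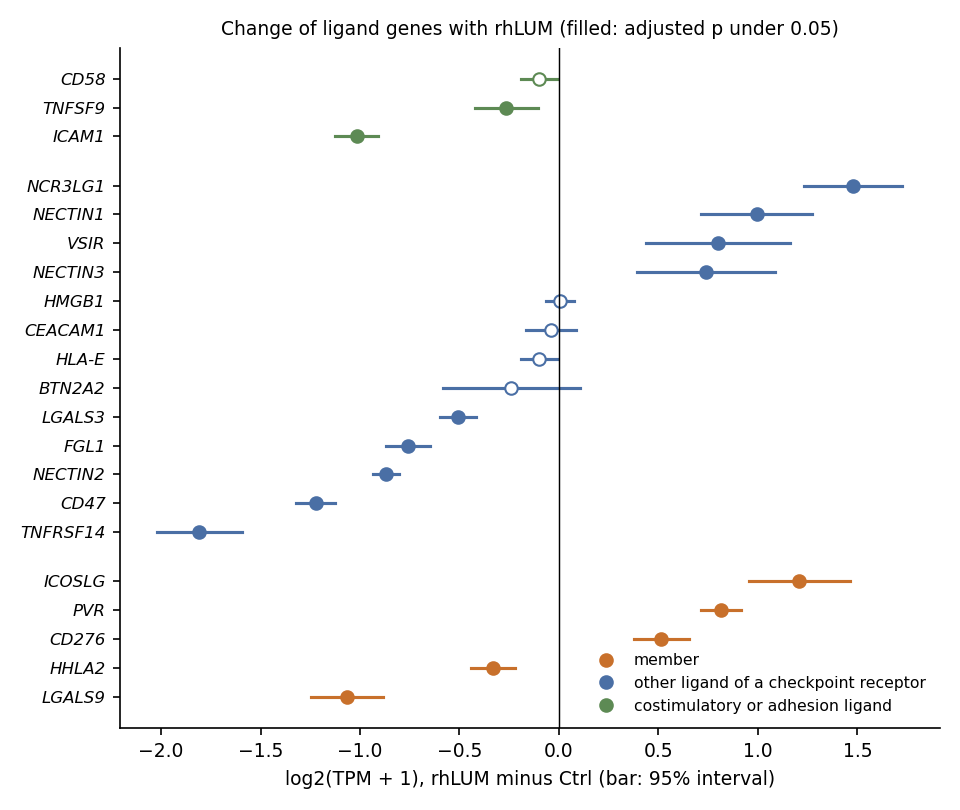
Change with rhLUM on the log2(TPM + 1) scale, with 95% intervals, of the 5 tested members, 13 other ligands of checkpoint receptors and 3 costimulatory or adhesion ligands. Filled symbols passed an adjusted p of 0.05. In each of the first 2 groups genes lie on both sides of 0, and the tested members run from LGALS9 at -1.06 to ICOSLG at 1.21.

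Most of the receptors belong to lymphocytes, and in these libraries 13 of 14 had a mean under 1 TPM. In a xenograft the lymphocytes would be the host's, so these human levels do not show whether cells with the receptors were present. CTLA4, CD28, ICOS and KIR3DL3 were listed at 0 in every library, and PDCD1 was at 0.08 TPM or less. RGMB, a membrane protein of many tissues that binds PD-L2, was the only one tested. It rose by 0.47 (limma adjusted p = 0.00819), a call lost with upper quartile scaling (limma adjusted p = 0.0565).

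Genes that act on PD-L1 protein went mostly up. The list mixes genes known to keep the protein with genes known to lead to its breakdown, so the count gives no direction for PD-L1. Of 19 tested, 17 rose and none fell, with a median of 0.58, against 44.5% and 22.3% of all genes. After median-of-ratios scaling 12 rose and 1 fell, with a median of 0.42 against 0.01. Leaving out Ctrl A gave 1 lower. CDK4, which acts on the ubiquitin ligase adaptor SPOP, rose from 118.7 ± 3.14 to 212.2 ± 3.41 TPM and the kinase subunit CSNK2A1 from 40.05 ± 1.96 to 81.8 ± 0.29 TPM (SD, n = 3). STT3A, of the enzyme that adds N-linked sugars, rose by 0.80 and the palmitoyltransferase ZDHHC9 by 0.71. CMTM6 and CMTM4, which keep PD-L1 at the cell surface, rose by 0.38 and 0.58 (limma adjusted p = 0.000194 and 0.000229). On the side of breakdown, BTRC rose by 1.05, GSK3B by 0.81 and SPOP by 0.24, and STUB1 was not called. With median-of-ratios scaling SPOP was not called and STUB1 was lower. These are transcripts of the regulators, and PD-L1 protein was not measured.

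Factors known to act on CD274 transcription went both ways. Of 20 tested, 12 rose and 3 fell, against 44.5% and 22.3% of all genes, with a median of 0.27. Upper quartile scaling gave 7 and 7, with a median of 0.04. EGFR rose from 13.4 ± 0.41 to 38.3 ± 1.22 TPM and TEAD1, the DNA-binding partner of YAP, from 8.59 ± 0.43 to 25.8 ± 1.25 TPM (SD, n = 3). JUN, a subunit of AP-1, was among the 3 that fell, by 0.56 (limma adjusted p = 2.18e-06). BCL3, a cofactor of NF-kB that lies 84122 bases beyond PVR, fell by 0.80 while PVR rose.

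Among the 8 ligands, the order of levels in Ctrl was HHLA2, LGALS9, CD276, PVR, ICOSLG, CD274, VTCN1 and PDCD1LG2. The ranges of neighbours in that order overlapped for ICOSLG with CD274 and for CD274 with VTCN1. In rhLUM it was PVR, HHLA2, CD276, LGALS9, ICOSLG, VTCN1, CD274 and PDCD1LG2, and the ranges overlapped for HHLA2 with CD276 and for VTCN1 with CD274. PVR thus moved from the fourth place to the first. HHLA2 stood at 2.13 ± 0.17 times PVR in Ctrl and at 0.947 ± 0.052 times PVR with rhLUM (SD, n = 3). The coefficient of variation over replicates was, for the 5 tested genes, 3.47% to 8.17% in Ctrl and 0.46% to 8.17% in rhLUM, and for CD274 28.6% and 68.9%.

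Profiles over the 6 libraries were compared by the Euclidean distance of centred log2(TPM + 1) values, among 11974 protein-coding genes. The genes nearest to PVR were FOXM1, a cell cycle factor, MRPL49 and HAT1, with distances of 0.0367 to 0.0496. Those nearest to LGALS9 were S1PR1, SPX and TMC6, at 0.0898 to 0.141. The nearest to CD276 were MAP7, ZNF213 and TAF8, to ICOSLG the dioxin receptor gene AHR, WBP11 and ABCC4, and to HHLA2 ALDH16A1, TRIM72 and the mitochondrial deacetylase gene SIRT3. Over 2 groups of 3 libraries, genes with a change of like size come close by this measure, and no likeness beyond that was tested: 662 genes lay within a distance of 0.2 of PVR and 656 of CD276, but 10 of LGALS9.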

How the data were processed

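RNA from xenografts was sequenced after poly-A selection with the KAPA mRNA HyperPrep kit, 10 PCR cycles and paired reads of 151 bases, per the labels' protocols. STAR 2.7.8, RSEM 1.2.31 and GRCh38 are named in the submitters' processing notes. The authors' values are TPM, per the file headers, in 1 table of 60725 rows per library. For the annotation release, strand and host reads, no statement is given in the sources used here. TPM keeps no depth, so the depth is unknown and no counting interval can be given. A total of 2210 rows that share a symbol were left out. 5 list symbols were matched through older names.

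Genes averaging 1 TPM or more entered limma 3.58.1 (R 4.3.3) as log2(TPM + 1), with the variance trend on, group as the only term and two-sided tests, with Benjamini-Hochberg adjustment over 14781 genes. Adjusted p-values come from this fit, and changes are rhLUM minus Ctrl. Named genes were the 8 members, up to 4 genes of each list with the smallest p, up to 2 on the other side, and the 3 nearest profiles. Other named genes were chosen after their values were seen, and some that the rule would name are not reported here. The members and lists were chosen with earlier results of these data known. Alternatives were 3 scalings, a pseudocount of 0.1, 2 filters, a replicate block, no trend, leaving out each library and, chosen after seeing the data, a loess fit on the length and GC content of transcripts (GENCODE 29, known for 89.2% of genes tested).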

Additional observations from a re-analysis of the deposited data

How the results depend on the processing

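PVR, CD276, ICOSLG, LGALS9 and HHLA2 kept their direction and their call under all 15 alternatives, so the counts of members higher stayed at 3 and of members lower at 2, or at 3 with no filter, where CD274 was called. With a pseudocount of 0.1 the untested values were -1.86 for CD274, -0.088 for PDCD1LG2 and -0.40 for VTCN1. Leaving out single libraries gave -0.91 to -0.65 for CD274. The count of all genes lower was 5157 with upper quartile scaling, beside 4489 higher, and the median gene moved by -0.21. No pairing by replicate letter was seen: same-letter correlations of deviations from the group means were 0.029, -0.023 and 0.084, and not every library was closest to its own letter. With 3 libraries per group such values cannot exclude that the letters mark pairs. With the replicate block PVR had the same change, 0.82 (limma adjusted p = 9.74e-05), and the members' counts were 3 and 2. Among the genes named by the rule, other than the members, 25 calls were lost and none reversed. Among the lists other than the members and the cell markers, 34 counts moved by more than 1.5 times, or to or from 0. Genes named outside the rule are not in this tally. With median-of-ratios scaling IRF3 and SPOP lost their calls, and CEACAM1 and HMGB1 gained one. HMGB1 also changed sign, from 0.01 to -0.16. Levels under 1 TPM rest on an unknown number of reads.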

Other observations

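Ligands of NKG2D, the activating receptor of natural killer cells, were measured beside the checkpoint ligands. Of 6 tested, 4 rose and none fell, with a median of 0.59, and the counts were the same after median-of-ratios scaling. Over all genes tested 66.8% were called, 44.5% higher and 22.3% lower, so 4 called of 6 is no result about these ligands as a set. Among genes at 1 TPM or more in each of the 6 libraries, 3 were tested, and 2 rose. ULBP1 averaged under 1 TPM in Ctrl and entered the test only through its rhLUM level. ULBP3 rose from 1.09 ± 0.27 to 3.73 ± 0.53 TPM and MICA from 7.54 ± 0.88 to 12.7 ± 1.45 TPM (SD, n = 3), log2 changes of 1.18 and 0.68 (limma adjusted p = 0.000318 and 0.000977). The differences of MICB and ULBP1 were 0.50 and 0.58, and both calls were lost with length and GC corrected for (limma adjusted p = 0.0652 and 0.169). Of 6 tested butyrophilins, relatives of the B7 family, none rose and 1, BTN3A2, fell from 13.1 ± 0.19 to 9.71 ± 1.72 TPM (SD, n = 3). That call was lost on leaving out Ctrl A, Ctrl B or Ctrl C (limma adjusted p = 0.054 to 0.0583). Other settings gave more butyrophilins lower: 2 after median-of-ratios scaling, 3 with upper quartile scaling and 4 with length and GC corrected for.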
